A study of Sus scrofa with 40 samples.

Results

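MBP, PRX, SOX10, PMP2, CNP and GFAP are genes of Schwann cells and of the myelin these cells make, and they were described across 4 pork cuts. They were picked by symbol: each of the 6 is named in the deposited count table of 21280 genes, and all 6 were found. RNA sequencing covered belly (PB), hamstring (HM, hind leg), longissimus dorsi (LDM, along the back) and trapezius (TM, neck and shoulder), with 10 libraries per cut. All animals were male Chalu black pigs of a single sire, fasted for 24 h, and tissue was cut from the left carcass side, clear of fascia, within 45 minutes of death. The labels give no age. Libraries carry numbers 1 to 10 within each cut, and nothing in the labels ties a number to an animal, so p-values measure only the spread between these libraries, which may be partly technical.

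Schwann cells are the glia of peripheral nerve. In a muscle they wrap the motor and sensory axons that run between the fibres, and some of them cap the nerve endings at the neuromuscular junction. A myelinating Schwann cell winds its membrane around a single axon. Compact layers of that sheath are held together by proteins that include PMP22, MBP and PMP2, while PRX and CNP belong to its uncompacted or outer membranes. SOX10 is the transcription factor that Schwann cells need at every stage, and GFAP is an intermediate filament of Schwann cells that do not myelinate. Nerve is a small part of muscle tissue, and in bulk RNA fewer cells of a type and less RNA per cell cannot be told apart.

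Total counts per library ran from 12305913 to 17735722, so a single count was worth 0.0564 to 0.0813 CPM (the count scaled to the library total). Skeletal muscle identity genes (ACTA1, CKM, NEB and DES) summed to 84484 to 153246 CPM over the 40 libraries, so skeletal muscle was present in each. The sums overlapped between cuts, so they do not check which cut a library came from. Some libraries stood apart or went against their labels. HM6 had the highest value of its cut for all 6 genes, and TM6 and TM7 were each among the top 2 of TM for 5 of them. PB5 was among the bottom 2 of PB for all 6. These ranks use library totals. The fit used later scales libraries further by TMM factors, which were 1.35 in HM6, 1.29 in TM7, 1.21 in TM6 and 0.729 in PB5. With them HM6 would rank below HM8 and HM9 for MBP. TM6 would leave the top 2 for MBP and TM7 for CNP, and PB5 the bottom 2 for MBP, SOX10 and CNP. PB1 is titled as belly while its tissue field names the longissimus, and it was kept in PB. Results that rest on these libraries are given with and without them.

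Per length, on the FPKM scale averaged over 40 libraries, MBP was the most abundant of the 6 at 5.84, and CNP followed at 3.18. PRX was at 0.452, SOX10 at 0.392, PMP2 at 0.319 and GFAP at 0.212 FPKM. PMP22, a tetraspan protein of compact myelin, reached 10.3 FPKM. The 4 scarcer genes therefore rest on few reads: SOX10 had 868 counts in all 40 libraries together and GFAP had 819, against 34372 for MBP. All 6 passed the filter on low counts, which asks for 0.674 CPM in at least 10 libraries. SOX10 reached that level in 30 libraries and GFAP in 28, but each in only 4 of the 10 PB libraries.

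The gene models, on Sscrofa11.1 as deposited, bear on what was counted. MBP (ENSSSCG00000038767) lies at chr1:147568673-147685288 on the plus strand and overlaps no other model of the table. Its deposited start is 80843 bases upstream of the start in the RefSeq table for the same assembly; the MBP gene is known to include an upstream transcription unit, golli, that is used outside myelinating glia as well, and the counts do not separate the units. PRX (ENSSSCG00000038439) lies at chr6:48675231-48686044 on the minus strand and shares 8446 bases with HIPK4 on the same strand. SOX10 (ENSSSCG00000039315) lies at chr5:9891525-9959852 on the plus strand, and its model runs 58106 bases past the RefSeq end, through MICALL1, C22orf23 and part of POLR2F. PMP2 (ENSSSCG00000036441) lies at chr4:55118864-55142036 on the plus strand and overlaps FABP9, which had 13 counts in all. CNP (ENSSSCG00000017420) lies at chr12:20758081-20776868 on the minus strand, across TTC25 and the end of DNAJC7. GFAP (ENSSSCG00000017343) lies at chr12:18456263-18468898 on the plus strand and overlaps FAM187A, which had 2 counts. How the counting treated strand is not given in the sources, so SOX10, CNP and PRX values are uncertain by whatever reads these neighbours share with them. No strand setting separates PRX from HIPK4, CNP from TTC25 (10011 shared bases) or SOX10 from C22orf23 (7854), since each lies on the same strand. HIPK4, with 388 counts in all, was lower in PB than in LDM by -0.93 on the log2 scale (edgeR adjusted p 0.0234), a pair in which PRX was also lower, and MICALL1 was lower in PB than in TM by -0.64 (0.00209 by edgeR), as SOX10 was. TTC25, with 617 counts in all, was higher in PB than in LDM by 0.76 (edgeR adjusted p 0.0432), a pair in which CNP leaned lower. The part of these neighbours in the PRX, SOX10 and CNP values was not tested. Within cuts, the correlation (Pearson r over 40 libraries) of PRX with HIPK4 was -0.01, that of SOX10 with MICALL1 was 0.16 and with POLR2F 0.17, and that of CNP with DNAJC7 was 0.24.

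Whether nerve and myelin transcripts differ between the cuts was asked first with an F test over all 4 cuts (edgeR quasi-likelihood fit, Benjamini-Hochberg adjustment over 11713 tested genes, threshold 0.05). The test called 4 of the 6 genes: MBP, PRX, SOX10 and PMP2. Of all genes tested, 57.2% were called, so a share of this size is near that of the transcriptome. CNP and GFAP did not pass, with adjusted p of 0.186 and 0.115 in the edgeR fit. With HM6 and TM6 left out, 2 of the 6 passed, MBP and PRX.

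MBP, a compact myelin protein that seals the inner faces of the membrane, was high in LDM and lower in the other 3 cuts. In LDM it ran from 65.9 CPM to 144.7 with a median of 96.0. In HM the lowest, median and highest values were 18.6, 27.3 and 75.5 CPM, in TM 15.1, 38.4 and 105.3, and in PB 13.0, 33.9 and 64.7. On library totals, every PB library lay below every LDM library. HM was split: HM6, HM8 and HM9 were between 71.7 and 75.5 CPM and reached into the LDM range, while the other 7 lay below it. The fit scales further by TMM factors, such as 0.807 in PB8, 0.968 in LDM6 and 1.35 in HM6. On that scale PB8 (63.7 CPM here) would lie above LDM6 (65.9), and HM6 would fall below the LDM range. Means were 37.8 ± 17.2 CPM (SD, n = 10) in PB, 39.9 ± 23.6 in HM, 45.3 ± 29.9 in TM and 104.2 ± 31.1 in LDM.

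The log2 change of MBP against LDM was -1.45 ± 0.31 (SE) in HM, -1.39 ± 0.31 in TM and -1.35 ± 0.31 in PB. Adjusted p from edgeR was 0.000485, 0.00105 and 0.000627 in that order, and LDM stood above each of the other cuts. Among those 3 cuts MBP did not pass in any pair, with log2 differences of 0.03 to 0.10 and 95% intervals that reached 0.70 in PB against HM. The fall of MBP held with each library left out in turn and in every alternative fit. The share of all tested genes with every PB library below every LDM library was 2.29%.

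PMP2, a fatty acid binding protein of compact peripheral myelin, was scarce in most libraries and very high in a few. The medians were 1.60 CPM in HM, 0.763 in LDM, 1.73 in TM and 1.32 in PB. The highest value was 33.4 CPM in TM6, and 9.27 in TM7 came next in that cut. HM6 had 11.8 CPM against 2.92 in the next HM library, and LDM1 6.07 against 2.61. PB held no such library and ran from 0.200 to 2.47 CPM. The ranges of the 4 cuts overlapped.

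The edgeR fit called PMP2 higher in TM than in LDM, by 1.70 ± 0.57 on the log2 scale (adjusted p 0.0243), and lower in PB than in TM, by -1.76 ± 0.57 (adjusted p 0.0223). Both calls rested on a single library. Without TM6 the change in TM against LDM was 0.61 with an edgeR adjusted p of 0.367, and that in PB against TM was -0.62 with 0.366. The F test for PMP2 then gave an adjusted p of 0.304. TM had a mean of 5.58 ± 10.1 CPM (SD, n = 10) with TM6 and 2.49 ± 2.60 (n = 9) without it.

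PRX, the periaxin scaffold that ties the Schwann cell surface to DRP2 and dystroglycan, was low in the belly. In PB it ran from 0.193 to 1.79 CPM with a median of 1.16. The median was 2.38 CPM in LDM (0.933 to 5.72), 1.86 in HM (0.536 to 6.15) and 2.69 in TM (1.23 to 9.36). All 10 PB libraries lay below the median of each other cut, although the ranges overlapped. PRX fell in PB against LDM by -1.21 ± 0.38 on the log2 scale (SE, edgeR adjusted p 0.00983) and against TM by -1.49 ± 0.38 (0.00376). Against HM the log2 difference was -0.94 ± 0.38 with an edgeR adjusted p of 0.0601. The calls against LDM and TM held with each library left out, and without HM6 and TM6 the change against TM was -1.20 with an adjusted p of 0.0133 from edgeR.

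CNP, an enzyme of uncompacted myelin that other cells also make, varied little. It ran from 6.03 to 12.3 CPM in HM, 5.02 to 15.1 in LDM, 4.87 to 11.6 in TM and 3.66 to 8.53 in PB. Medians were 7.17, 7.32, 9.35 and 5.57 CPM in that order. With cut as the only factor, CNP passed in 0 of the 6 pairs by edgeR, and at an unadjusted p under 0.05 only in PB against LDM. There the log2 difference was -0.42 ± 0.18 (SE), with an adjusted p of 0.0591. All 10 PB libraries were below the TM median.

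SOX10, the lineage factor, was also low in the belly, from 0.0813 to 1.07 CPM with a median of 0.625. The median was 1.22 CPM in LDM (0.0583 to 1.97), 1.53 in HM (0 to 6.15) and 1.69 in TM (0.786 to 4.57). HM spanned the whole scale, with no count in HM4 and 89 counts in HM6. All 10 PB libraries lay below each other cut's median and the ranges overlapped. SOX10 fell in PB by -1.49 ± 0.47 against HM (SE, edgeR adjusted p 0.0154) and by -1.50 ± 0.47 against TM (0.0178). Against LDM the log2 difference was -0.76 ± 0.48, with an edgeR adjusted p of 0.200. Without HM6 the PB and HM difference was -1.20 with an adjusted p of 0.0556, and without HM6 and TM6 the PB and TM difference was -1.27 with 0.0409 (edgeR). With limma-voom both calls were lost, at adjusted p of 0.371 against HM and 0.0714 against TM.

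GFAP, the filament of non-myelinating Schwann cells, was the least abundant of the 6. Its medians were 1.51 CPM in HM (0.536 to 6.64), 0.824 in LDM (up to 3.08), 1.04 in TM (0.538 to 3.63) and 0.442 in PB (0 to 2.14). PB1 had no count, and HM6 had 96. The ranges overlapped in every pair. GFAP was called lower in PB than in HM, by -1.20 ± 0.46 on the log2 scale (SE), at an edgeR adjusted p of 0.0495. That call was lost in 14 of the 20 fits that leave out 1 library of the pair, and without HM6 the change was -0.85 with an adjusted p of 0.174.

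**Figure D1:**
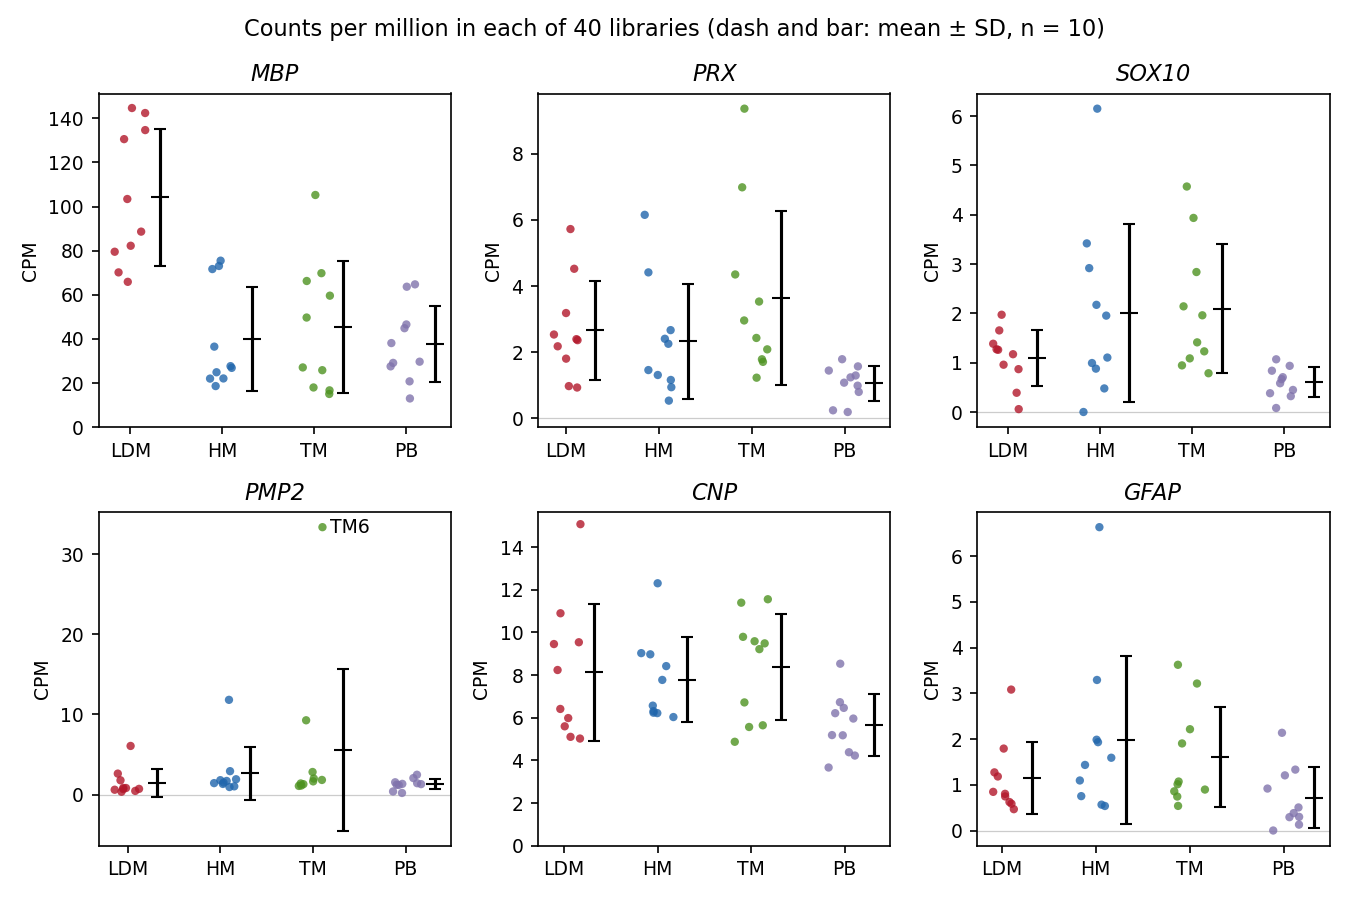
Each panel plots 1 gene, with CPM on a linear axis, 1 point per library (10 in each of LDM, HM, TM and PB), and the mean ± SD beside the points. MBP is the gene with all LDM points above all PB points, and the tallest point is TM6 for PMP2 and HM6 for SOX10 and GFAP.

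Counted by pair, the 6 genes gave few calls, and these went in a common direction for the belly. PB against LDM had 2 lower and none higher, where 21.2% of all tested genes were lower and 20.5% higher. PB against TM had 3 lower (PRX, SOX10 and PMP2), where 9.69% of genes were lower and 13.4% higher. PB against HM had 2 lower (SOX10 and GFAP), where 14.1% were lower and 13.5% higher, and 0 were called without HM6. HM against LDM had 1 lower, MBP, where 16% were lower and 16.5% higher. TM against LDM had 1 lower, MBP, and 1 higher, PMP2, where 13.4% were lower and 11.3% higher.

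TM against HM had 0 of the 6 genes called by edgeR, 0 at an unadjusted p under 0.05, 0 by DESeq2 and 0 by limma-voom, where 0.768% of all genes were called in either direction. The widest 95% interval there, that of PMP2, ran from -0.08 to 2.06 on the log2 scale. The median log2 change of the 6 genes was -1.17 in PB against TM and -0.85 in PB against HM, beside -0.06 and -0.05 over all genes tested. Without HM6 and TM6 those medians were -0.64 and -0.47.

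**Figure D2:**
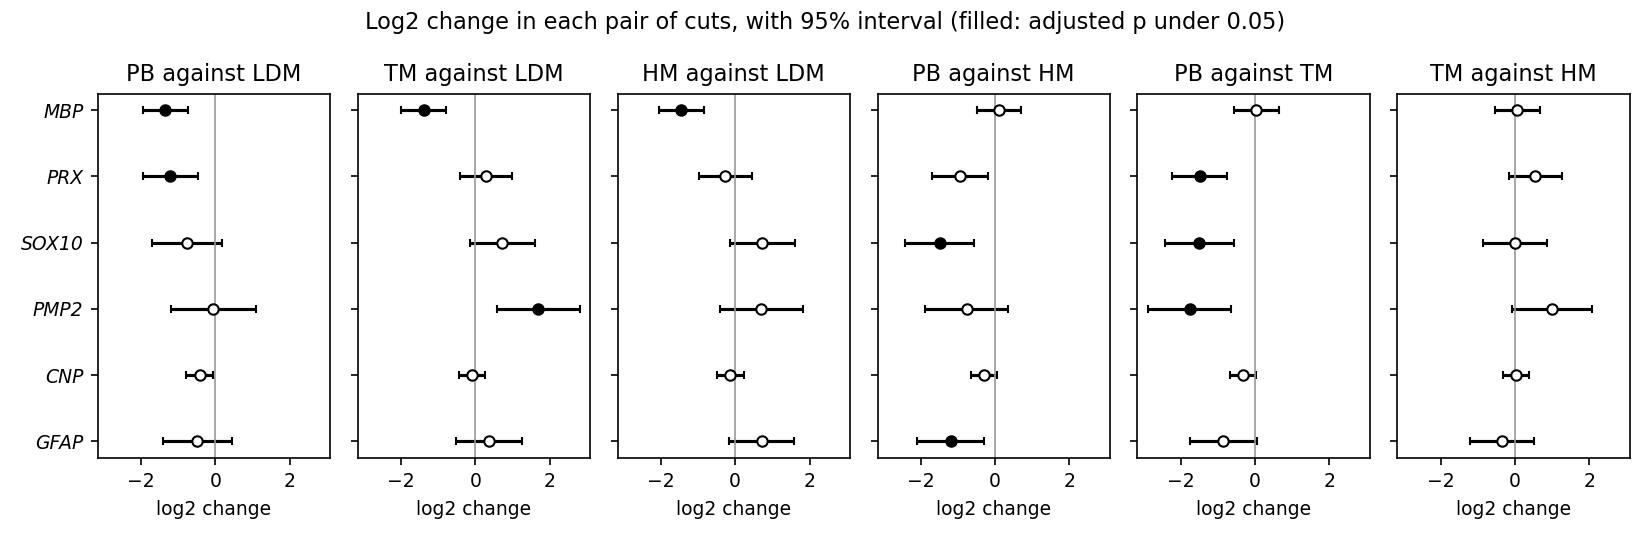
The horizontal axis is the log2 change of each gene in each pair of cuts from the edgeR fit, with its 95% interval, and filled points passed an adjusted p of 0.05. MBP is filled in the 3 comparisons with LDM and lies near 0 in the other 3, whereas PRX and SOX10 are filled in comparisons with PB.

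The other genes of peripheral nerve were taken from 8 lists covering compact and uncompacted myelin, nodes, lineage factors, non-myelinating Schwann cells, receptors, myelin lipids and axons. Outside the 6 genes, 40 members of these lists were tested, and 20 differed among the 4 cuts by the F test (50%, beside 57.2% of all genes). Of the 7 tested compact myelin genes 4 passed: PMP22, PLLP, MBP and PMP2. PMP22 was at 77.1 ± 22.8 CPM in TM (SD, n = 10) and 34.4 ± 12.1 in PB, and fell in PB against TM by -0.90 ± 0.21 on the log2 scale (edgeR adjusted p 0.00194). PLLP, a tetraspan lipid-raft protein of myelin, fell in PB against HM by -0.67 ± 0.23 (adjusted p 0.0230 by edgeR). That call was lost without HM6 and without HM7, and its F test without LDM5 or LDM9. Compact myelin as a list had 4 of 7 tested genes lower in PB than in TM, and 1 of 7 without HM6 and TM6.

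Among 6 tested genes of uncompacted and outer myelin membranes only PRX passed the F test, and 3 were lower in PB than in TM: PRX, DRP2 and NCMAP. DRP2, the dystrophin-related partner of PRX, fell by -1.64 ± 0.53 on the log2 scale (SE, edgeR adjusted p 0.0231), a call lost without TM6. NCMAP, a small protein of non-compact myelin, changed by -1.80 ± 0.62 (0.0317 by edgeR), lost without TM6, TM7, PB1, PB8 or PB10. NDRG1, the most abundant gene of that list at 4.88 FPKM, did not pass (adjusted p 0.439 by edgeR).

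The genes of the node and paranode, where the sheath meets the axon, went both ways. In PB 3 of 7 were higher and 0 lower than in LDM, 2 higher and 2 lower than in HM, and 1 higher and 1 lower than in TM. ANK3, the ankyrin that anchors sodium channels and is also made in muscle fibres, rose in PB against each other cut, from 145 ± 65.3 CPM in LDM to 268 ± 60.7 in PB (SD, n = 10), by 1.02 ± 0.26 on the log2 scale (edgeR adjusted p 0.00204). CNTN1, a paranodal adhesion molecule, was at 0.160 ± 0.136 CPM in LDM and 0.90 ± 0.483 in PB and rose by 2.57 ± 0.47 (edgeR adjusted p 4.44e-05). CNTNAP1, its partner on the axon, rose in HM against LDM by 1.11 ± 0.31 and fell in PB against HM by -1.12 ± 0.32 (adjusted p 0.00626 and 0.00712 by edgeR). NRCAM rose in PB against LDM by 1.14 ± 0.33 (0.00486 by edgeR). GLDN, the gliomedin that Schwann cells place at the node, fell in PB against HM by -1.30 ± 0.38 (edgeR adjusted p 0.00885), a call lost without HM6. NFASC, the neurofascin of node and paranode, was lower in PB than in TM by -1.71 ± 0.58 (0.0283 by edgeR), lost without TM2, TM6 or TM7. Of 7 tested genes of this list 5 passed the F test, and 4 without HM6 and TM6.

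Of 5 tested lineage factors, 3 passed: SOX10, FOXD3 and ZEB2. FOXD3, a neural crest factor, had an F test adjusted p of 0.0320 and ZEB2, which many other cells express, 0.0436 (edgeR). The first was lost in 6 and the second in 11 of the 40 fits that leave out 1 library. EGR2, the factor that switches on myelination, did not pass (0.207 by edgeR). Of 7 tested genes of non-myelinating and immature Schwann cells, 3 passed: NCAM1, L1CAM and CDH2, of which L1CAM was lost in 17 of the 40 such fits and CDH2 without HM2 or HM4. NCAM1, which muscle fibres can also express, fell in PB against HM by -1.23 ± 0.33 on the log2 scale (edgeR adjusted p 0.00478). GPM6B, the most abundant of these at 1.68 FPKM, did not pass (0.662 by edgeR).

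Among 7 tested receptors and ligands 4 passed: RET, ADGRG6, LPAR1 and ERBB3. Within cuts their Pearson r with SOX10 over 40 libraries was 0.19 for ERBB3, 0.09 for LPAR1, -0.05 for RET and -0.06 for ADGRG6. Whether the changes of these 4 genes lie in Schwann cells was not tested. ERBB3, the neuregulin receptor of Schwann cells, was at 170 ± 22.9 CPM in LDM and 103 ± 30.5 in PB (SD, n = 10), and fell by -0.61 ± 0.15 on the log2 scale (edgeR adjusted p 0.00104). RET, a receptor of the GDNF family, rose in TM against LDM by 1.34 ± 0.29 (edgeR adjusted p 0.000817) and fell in PB against TM by -1.06 ± 0.29 (0.00713). LPAR1, a lysophosphatidic acid receptor, rose in PB against LDM by 1.06 ± 0.25 (0.000796 by edgeR). ADGRG6, the adhesion receptor that starts myelination, rose in PB against LDM by 2.58 ± 0.57 (edgeR adjusted p 0.000460). That change was 1.22 to 2.77 over the 20 fits that leave out 1 library, and the F test of ADGRG6 was lost without PB8 (adjusted p 0.0534).

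Of 5 tested genes of myelin lipid synthesis, 2 passed the F test, among them CERS2, a ceramide synthase. CERS2 rose in HM against LDM by 0.53 ± 0.14 on the log2 scale (edgeR adjusted p 0.00356). Of the axon list only UCHL1 and MAPT were abundant enough to test. UCHL1, a ubiquitin hydrolase of neurons, fell in PB against LDM by -1.14 ± 0.30 and MAPT, which muscle also expresses, by -0.51 ± 0.13 (edgeR adjusted p 0.00239 and 0.00231). CHAT, the motor neuron enzyme that makes acetylcholine, had 0 counts in all 40 libraries, and the neurofilament NEFL had 140 in all.

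Between libraries of a cut, the 6 genes differed in how far they scattered. The standard deviation of log2(CPM + 0.5) within cuts was 1.01 for PMP2, 0.75 for MBP, 0.74 for SOX10, 0.73 for PRX, 0.73 for GFAP and 0.40 for CNP. The median over all tested genes was 0.44. PMP2 scattered more than 97.5% of tested genes and MBP more than 92.4%, whereas CNP exceeded 40.9%. The tested genes were not matched for abundance, so counting noise in scarce genes such as PMP2 enters these shares. SOX10 and GFAP each had a library with no count, whereas the lowest library of MBP held 207 counts.

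Whether the scatter itself differed between cuts was tested by a Brown-Forsythe permutation test with 100000 permutations. It called 0 of the 6 genes, and 0 at an unadjusted p under 0.05. The lowest permutation p was 0.0672 for SOX10 and 0.0764 for MBP. The standard deviation of MBP was 0.78 in HM, 0.44 in LDM, 0.99 in TM and 0.71 in PB on the log2 scale. That of SOX10 was 1.08 in HM and 0.43 in PB. The added 0.5 narrows the log2 spread in PB, where the SOX10 median was 0.625 CPM. On the CPM scale its SD was 50.2% of the mean in PB, 51.4% in LDM, 62.5% in TM and 90.2% in HM.

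The genes were also compared across libraries with the mean of each cut removed. CPM on library totals was used without TMM factors, so differences in scaling between libraries enter these correlations. Of 15 pairs, 8 correlated (permutation p for Pearson r, libraries permuted within cuts, Benjamini-Hochberg over the 15 pairs). These p-values treat the 40 libraries as independent, which would not hold if same-numbered libraries share an animal. PRX and SOX10 had a Pearson r of 0.77 and a Spearman rho of 0.74 over 40 libraries, each with the smallest permutation p that 100000 draws can give, 1e-05 (adjusted 7.5e-05). Pearson r was 0.91 in HM, 0.69 in LDM, 0.72 in TM and 0.72 in PB, and 0.71 without TM6 and HM6. PRX and PMP2 had an r of 0.72 and a rho of 0.65 (permutation p 1e-05 for both, adjusted 7.5e-05), and r was 0.61 without TM6 and HM6.

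GFAP followed the same libraries more loosely, with an r of 0.55 and a rho of 0.53 to SOX10 (permutation p 0.000560 and 0.000780) and an r of 0.54 and a rho of 0.49 to PRX (permutation p 0.000570 and 0.00238). Without the 2 farthest libraries r was 0.41 for both. The pairs PMP2 with GFAP, SOX10 with PMP2, SOX10 with CNP and CNP with GFAP had r of 0.48, 0.46, 0.43 and 0.36 (adjusted permutation p 0.00636, 0.0102, 0.0102 and 0.0374). These 4 lost the threshold without HM6, when 4 pairs passed. Of the 40 runs that leave out 1 library, CNP with GFAP lost it in 9, HM6 among them. For SOX10 with PMP2 rho was 0.28 with an adjusted permutation p of 0.122.

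MBP passed in 0 of its 5 pairs, at r from 0.03 with CNP to 0.37 with PMP2 (adjusted permutation p 0.0532 for the latter, where rho was 0.36 with 0.0473). With PRX its r was 0.29 (adjusted permutation p 0.126), made up of 0.85 in TM, -0.13 in LDM, 0.00 in HM and 0.01 in PB. TM6 and TM7 were high in both genes. Without TM7 and HM6 the r of MBP with PRX was 0.14.

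**Figure D3:**
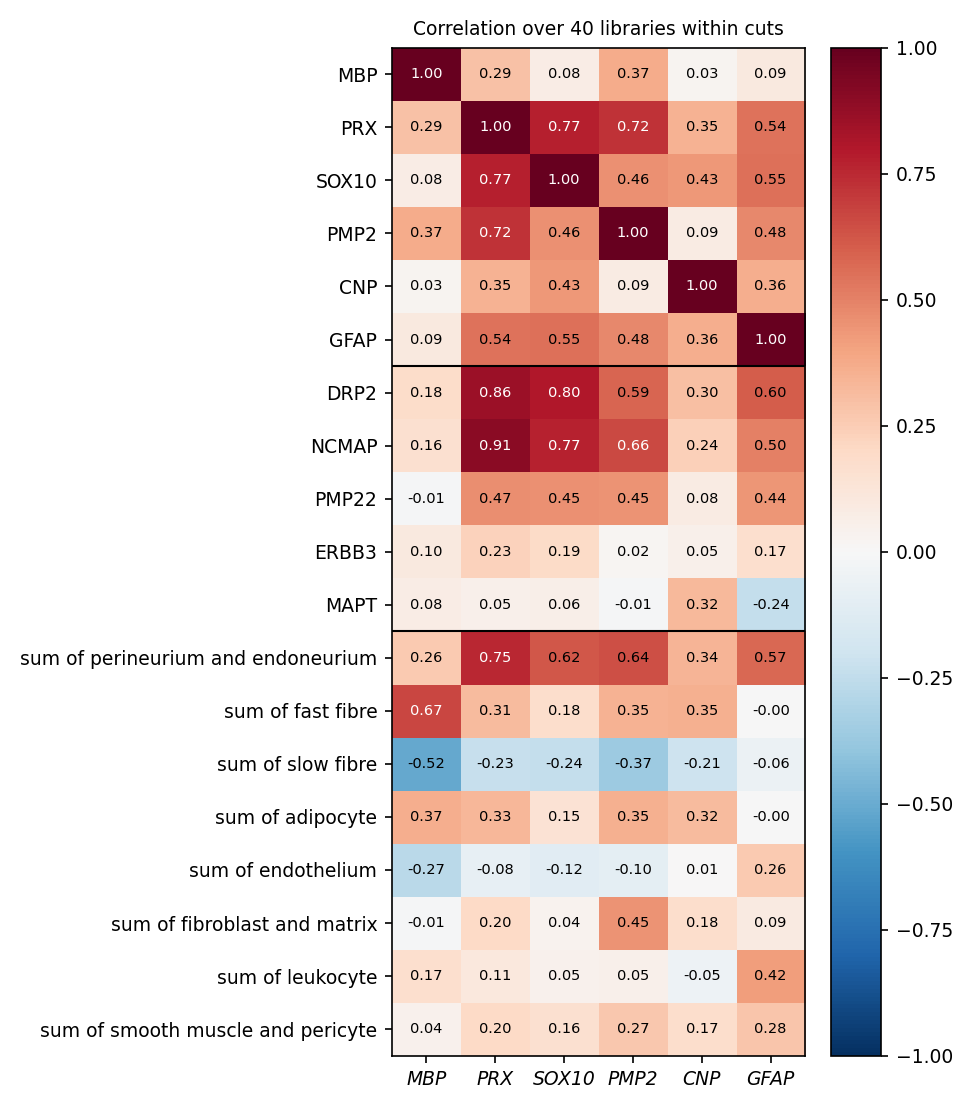
Colours and numbers are Pearson r over 40 libraries, with the mean of each cut removed from log2(CPM + 0.5), for the 6 genes (columns) against each other, against other Schwann and nerve genes, and against summed marker lists. PRX and SOX10 are dark red with DRP2 and NCMAP, while MBP is pale there and red with the sum of fast fibre genes.

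The genes most like each of the 6 across libraries are given as a description, by Pearson r of within-cut deviations over 40 libraries that share depth and dissection. For PRX these included NCMAP at 0.91, DRP2 at 0.86 and SPTBN5 at 0.84. For SOX10 they included DRP2 at 0.80, PRX at 0.77 and NCMAP at 0.77. The r of PRX with DRP2 was 0.89 in HM, 0.88 in LDM, 0.77 in TM and 0.92 in PB.

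For PMP2 the nearest genes were COL28A1, a collagen of peripheral nerve, at 0.85, the keratin KRT8 at 0.79, UGT8, the enzyme that makes galactocerebroside for myelin, at 0.77, MPZL2 at 0.77 and CADM3 at 0.77. For GFAP they were FADS1 at 0.65, PITPNM3 at 0.65, CYFIP2 at 0.63, KRT8 at 0.63 and CLDN1, a tight junction protein of perineurium, at 0.63. For CNP they were MINK1 at 0.76, PIK3C2B at 0.75, NEO1 at 0.72, GPRC5C at 0.70 and OSBPL7 at 0.69, with r to DRP2 of 0.30.

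For MBP the nearest genes were PI4KB at 0.78, the growth hormone receptor GHR at 0.74, STRBP at 0.73, SNTB1, a syntrophin of the muscle membrane, at 0.73 and SYT12 at 0.72. None of these 5 is on a nerve list. SNTB1 averaged 27.9 CPM in HM, 87.7 in LDM, 22.8 in TM and 20.8 in PB, and PI4KB 51.2, 75.1, 39.2 and 34.4 in that order. The r of MBP with NCMAP was 0.16 and with DRP2 0.18. In TM alone the r of MBP with DRP2 was 0.56 and with PMP2 0.65, and in the other cuts it ran from -0.08 to 0.04 with DRP2. Whether these correlations differ from those of PRX and SOX10 was not tested.

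Fibre type moved with MBP. All 9 fast fibre genes tested (among them TNNT3, MYLPF and ATP2A1) were lower in PB, TM and HM than in LDM, and all 9 slow fibre genes (MYH7 and TNNI1 among them) were higher. The summed fast fibre genes ran from 18191 to 77572 CPM in HM, 66076 to 98107 in LDM, 13460 to 80496 in TM and 23245 to 69872 in PB. Within cuts the r of MBP with that sum was 0.67 (rho 0.59) over 40 libraries and 0.58 without TM7 and TM5, but its sign differed between cuts: 0.76 in HM, -0.63 in LDM, 0.82 in TM and 0.57 in PB. For PRX it was 0.31, for SOX10 0.18 and for GFAP near 0. The part of fibre type in the MBP difference was not tested.

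**Figure D4:**
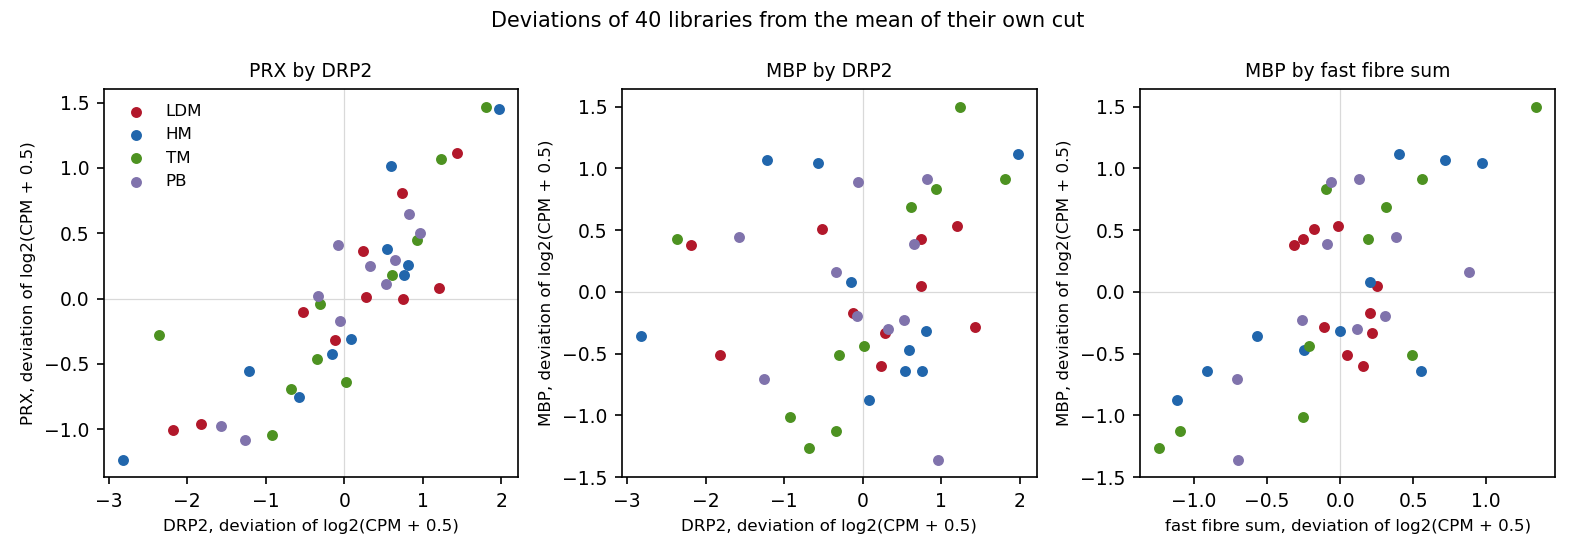
Each point is 1 of 40 libraries, coloured by cut, and both axes are deviations of log2(CPM + 0.5) from the mean of its cut. PRX climbs with DRP2 (r of 0.86), MBP scatters against DRP2 (0.18), and MBP climbs with the fast fibre sum (0.67) except among the LDM libraries.

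Within cuts, the summed genes of endoneurium and of perineurium, the sleeve of cells around a nerve bundle, varied with PRX, SOX10, PMP2 and GFAP. The sum of the 6 matched genes of perineurium and endoneurium ran from 29.1 to 155 CPM in HM, 17.9 to 73.4 in LDM, 20.7 to 92.2 in TM and 21.1 to 40.7 in PB. Its r with PRX within cuts was 0.75 (rho 0.72), with PMP2 0.64, with SOX10 0.62, with GFAP 0.57, with CNP 0.34 and with MBP 0.26. HM6 held the HM maximum, and the next HM library had 90.8 CPM. Without HM6 r was 0.71 with PRX, 0.56 with PMP2, 0.53 with SOX10, 0.47 with GFAP, 0.24 with CNP and 0.16 with MBP. With PMP2, HM6 kept, the sign differed between cuts: 0.86 in HM, 0.73 in LDM, 0.67 in TM and -0.28 in PB. By gene, r with PRX was 0.80 for ITGB4, 0.68 for CLDN1, 0.44 for ETV1, 0.32 for OSR2 and 0.13 for SOX9. SOX9 had 0.06 with SOX10, 0.02 with PMP2 and 0.22 with GFAP. Of 5 tested genes 2 passed the F test, ITGB4 and ETV1, the latter lost in 9 of the 40 fits that leave out 1 library. ITGB4, the integrin of perineurium and of Schwann cells, fell in PB against HM by -0.97 ± 0.29 on the log2 scale (edgeR adjusted p 0.0106), a call lost without HM6. ETV1, a transcription factor, went the other way and rose in PB against LDM by 1.08 ± 0.33 (0.00869 by edgeR), which held with each library of the pair left out. The part of nerve content of the piece sampled in the PRX, SOX10, PMP2 and GFAP differences was not tested.

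HM6 was high for more than myelin genes. Its 6 smooth muscle and pericyte genes summed to 7581 CPM against 1316 in the next HM library, and the 7 fibroblast genes to 3700 against 1575. The compact myelin genes, MBP and PMP2 included, summed to 385 CPM in HM6 against 145 in the next HM library, and to 428 in TM6 against 341 in the next of TM. TM6 was also the highest of TM for the perineurium sum, at 92.2 against 76.4 CPM, but TM1 and TM8 were highest for smooth muscle and fibroblast genes. Over the other cell types, the smooth muscle sum ran from 551 to 7581 CPM in HM, 381 to 714 in LDM, 482 to 1784 in TM and 208 to 633 in PB, and all 6 of its genes passed the F test. The endothelial sum ran from 321 to 987 CPM in HM, 270 to 363 in LDM, 340 to 775 in TM and 231 to 505 in PB, with 7 of 7 genes called.

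The fibroblast sum ran from 552 to 3700 CPM in HM, 445 to 1194 in LDM, 828 to 1984 in TM and 170.0 to 3077 in PB, with 2 of 7 genes called. Leukocyte genes summed to between 19.1 and 217 CPM with 1 of 5 tested genes called, and LYZ was at 0 in all 40 libraries. Adipocyte genes summed to 844 to 1609 CPM in LDM and 334 to 1250 in the other cuts, with 3 of 6 tested genes called. Within cuts the r of the 6 genes with these 5 sums ran from -0.27, for MBP with endothelium, to 0.45, for PMP2 with fibroblasts. GFAP had 0.42 with leukocytes, and with adipocytes MBP had 0.37, PMP2 0.35 (0.94 in PB) and PRX 0.33. The tested adipocyte genes did not all follow MBP. Its r was 0.59 with GPD1 and 0.44 with CFD, but 0.13 with ADIPOQ, 0.12 with PLIN1, -0.08 with CIDEC and -0.28 with LPL. With the whole adipocyte sum MBP also changed sign by cut, from -0.54 (LDM) to 0.71 (TM). The part of the cell types of these 5 sums in the differences of the 6 genes was not tested.

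PMP2 belongs to the fatty acid binding protein family. Of its 3 tested relatives, 2 were called higher in TM than in LDM, FABP5 and FABP3, where 11.3% of all tested genes were. The PMP2 call in that pair rested on TM6 alone. FABP5 was at 54.0 ± 9.69 CPM in LDM and 90.4 ± 26.6 in HM (SD, n = 10), and rose by 0.68 ± 0.20 on the log2 scale (edgeR adjusted p 0.00835). In TM against LDM it rose by 0.53 ± 0.20 (0.0450 by edgeR), a call lost in 14 of the 20 fits that leave out 1 library of the pair. FABP3, the heart and muscle form, rose in TM against LDM by 0.66 ± 0.22 (0.0222 by edgeR), a call lost without TM2. FABP4, the fat cell form and the most abundant of them at 32.4 FPKM, did not pass (F test adjusted p 0.284 by edgeR). FABP7, the form of immature glia, had 6 counts in all 40 libraries.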

How the data were processed

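The deposited table gives whole-number read counts and FPKM values for each library; the authors' FPKM equals the count scaled by gene length and library total for 100% of counts above 0 (relative tolerance 0.001), so it served only to compare levels between genes. Per the submitters' processing notes, cutadapt 1.15, HISAT2 2.0.5, HTSeq 0.9.1 and Sscrofa11.1 were used; per the labels' protocols, Trizol was used for RNA and a stranded KAPA kit for the libraries. Of 141 list symbols 134 matched, 663 names being added to the table by gene ID. Counts were fitted with edgeR 4.0.16 in R 4.3.3 (TMM, filterByExpr, robust quasi-likelihood, all 40 libraries, cut as the only factor), with 6 pairs as contrasts and Benjamini-Hochberg adjustment over 11713 genes. CPM values and correlations use library totals without TMM factors. No libraries were counted as 1 (lowest chi-square per gene within a cut 29.8, genes with at least 20 counts). On simulated data for PB against LDM (11713 genes), the fit called 24% of genes changed by 0.58 on the log2 scale and 61% of those changed by 1, and 4.49% of calls were false. The simulation changed only a small share of genes, in PB alone, with independent libraries and none outlying. In the real data 57.2% of genes were called by the F test, so these shares need not carry over. Genes named are the 6, up to 4 genes per other list by smallest adjusted p with its most abundant gene, and the 5 most correlated genes of each of the 6, beside genes printed as contents of a list; genes outside this rule (NEFL, CHAT, EGR2, FABP7, GLDN and NFASC) were chosen after their values were seen. A few genes selected under this rule were left out of the text. The 6 genes and all lists were chosen with earlier results of these data known. Alternatives used DESeq2 1.42.0, limma 3.58.1, other scalings and filters, libraries left out, and a fit of each pair alone; leaving out HM6 with TM6 was added after the data were seen.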

Additional observations from a re-analysis of the deposited data

Results flagged for a closer look

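In 6 of 24 groups of 10 libraries the highest library stood apart from the rest by more than Dixon's 95% criterion allows. Its rate of about 1 in 20 groups by chance holds for independent groups of normal data. These groups share libraries and hold CPM from low counts, so the 6 cannot be set against that rate. PMP2 did so in LDM1 at 6.07 CPM, in HM6 at 11.8 CPM and in TM6 at 33.4 CPM. CNP did so in HM6 at 12.3 CPM. GFAP did so in LDM9 at 3.08 CPM and in HM6 at 6.64 CPM. On library totals HM6 thus stood apart for 3 of the 6 genes, and no library of PB did for any.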

How the results depend on the processing

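Depth limits SOX10, PRX, PMP2 and GFAP, whose low libraries hold 0 to 19 counts, so small differences in them were not detectable. No result changed sign past the threshold under any setting. For PMP2 the F test adjusted p was 0.292 with DESeq2, 0.366 with limma-voom, 0.472 without HM6 and TM6, and 0.00252 to 0.304 with each library left out. For SOX10 it was 0.130 with limma-voom and 0.0651 without HM6 and TM6. For GFAP it was 0.0145 with limma-voom and 0.0318 (without PB3) to 0.288 with each library left out. Members that differ among the 4 cuts numbered 2 without HM6 and TM6. PB against HM had 1 of the 6 genes called under DESeq2 size factors, without mitochondrially encoded genes, with limma-voom, without the filter, without PB1, without HM6, HM9, TM3 and TM7, and in the pair alone, 0 without HM6 and TM6, and 0 to 3 with each library left out. TM against LDM had 1 called with DESeq2, with limma-voom, without HM6 and TM6 and in the pair alone, and 1 to 2 with each library left out. Correlated pairs numbered 5 without HM6 and TM6 and 4 to 10 with each library left out. The causes were not tested.

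The labels tie no number to an animal, so the numbers were not taken to pair the libraries. Of 60 same-numbered pairs, 52 correlated above 0.1. As a hint from the data, 28 of 40 libraries correlated best with their own number. The mean r of same-numbered libraries was 0.09 (number 4) to 0.39 (number 7), beside -0.03 for libraries of different numbers and cuts. Pairing is therefore possible, and calls that change with the block are open to it. HM6 and TM6 carry the same number and may come from the same animal. With the library number as a replicate block, the F test called 7502 genes against 6695 without it, the PMP2 adjusted p was 0.160 (0.119 in TM against LDM and 0.111 in PB against TM), TM against LDM had 1 of the 6 genes called, and CNP passed in PB against LDM at -0.39 (edgeR adjusted p 0.0281).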
